A study of Mus musculus with 9 samples.

Results

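Interferon receptors, the Janus kinases bound to them, the transcription factor gene Irf1 and the feedback genes Socs1 and Socs3 were followed in RNA from 9 mouse melanoma tumors. The set was chosen by gene symbol and holds 9 genes (Ifngr1, Ifngr2, Ifnar1, Ifnar2, Jak1, Jak2, Irf1, Socs1 and Socs3) of the 22136 genes in the deposited tables. Estimated reads were added up over the transcripts of each gene. YUMMER1.7 melanoma cells, which carry extra mutations from ultraviolet light and are easier for the immune system to see, were grown under the skin of immunocompetent C57BL/6J mice, and antibody dosing began at a tumor volume of 20 to 50 mm3. The groups were tumors given anti-B7-H3, tumors given anti-PD1 and tumors given an IgG isotype control, with 3 libraries each, and all carried the same grafted line. PD-1 is a checkpoint receptor that restrains T cells, and B7-H3 is a surface protein of the same B7 ligand family as PD-L1. The labels do not say whether each library came from its own mouse, so p-values measure the spread between these samples only. Time after dosing, dose and the age of the mice are not given in the sources used here.

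Type II interferon (interferon gamma) binds a receptor built from Ifngr1 and Ifngr2, with JAK1 on the first chain and JAK2 on the second. Type I interferons bind Ifnar1 and Ifnar2, which carry TYK2 and JAK1. The kinases phosphorylate STAT proteins, which enter the nucleus and switch on target genes such as Irf1, itself an activator of antigen presentation genes. SOCS1 and SOCS3 are induced by the same route and shut it down, SOCS1 by inhibiting the kinases downstream of interferon receptors and SOCS3 mainly at gp130 cytokine receptors. In tumors this pathway raises antigen presentation and the PD-1 ligand.

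The libraries were not alike in depth. Reads outside a set of 12 major satellite repeat genes ran from 7232196 to 14404557 with anti-B7-H3, from 5320073 to 9578312 with anti-PD1 and from 1218985 to 3533214 with IgG. The satellite genes took at least 87.0% of gene reads in every IgG library and at most 38.2% in any antibody library. Reads of olfactory and vomeronasal receptor genes, expected to be silent in skin, gave a background of 0.0116 to 0.0572 CPM per kb with anti-B7-H3, 0.0217 to 0.0839 with anti-PD1 and 0.234 to 2.17 with IgG. CPM here are depth-scaled reads on the TMM scale of edgeR, which centres each library on its typical gene. The labelled tumor type was checked against melanocyte lineage genes. Of 10 such genes 2 had enough reads to be tested (Mitf and Gpnmb), and up to 5 were at 0 in a library, among them Tyrp1 in 6 of the 9. Their summed level was 10.8 to 17.4 CPM with anti-B7-H3, 10.7 to 17.0 with anti-PD1 and 17.8 to 33.6 with IgG. Mitf and Gpnmb made up most of each sum. Sox10, Dct, Tyr, Tyrp1 and Mlana stood at 0.361 CPM or lower in the antibody libraries and at 4.14 or lower with IgG. The receptor background, higher with IgG, was not taken off these sums, so the check does not settle the tumor type.

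All 9 genes were detected in all 9 libraries and passed the filter on low counts. Reads per gene and library ran from 68 to 5448 with anti-B7-H3, from 22 to 3816 with anti-PD1 and from 12 to 1080 with IgG. The gene with the fewest reads was Socs1, with 12 in IgG replicate 3, for which the exact Poisson 95% interval is 6.2 to 21 reads (counting error only). Per kb of effective coding length, averaged over the 9 libraries, Irf1 stood highest at 63.2 ± 26.6 CPM per kb (SD over 9 libraries). Jak1 followed at 41.4 ± 5.08 and Ifngr2 at 35.3 ± 6.06. Socs3 (23.7 ± 5.94) and Ifngr1 (23.2 ± 6.91) came next, then Ifnar2 (18.5 ± 3.99), Ifnar1 (15.4 ± 3.62) and Jak2 (15.1 ± 3.10). These SDs give the spread over libraries and do not compare genes measured in the same libraries. Per kb, the ratio of Ifnar1 to Ifnar2 ran from 0.684 to 0.998, so Ifnar2 stood above Ifnar1 or about level with it. The length of Ifnar2 was averaged over its transcripts, and the split of its reads between them is uncertain. Socs1 was lowest at 10.9 ± 5.59 CPM per kb. Between the highest and the lowest library, CPM differed 5.83-fold for Socs1 and 3.17-fold for Irf1, and at most 2.39-fold for the other 7.

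**Figure D1:**
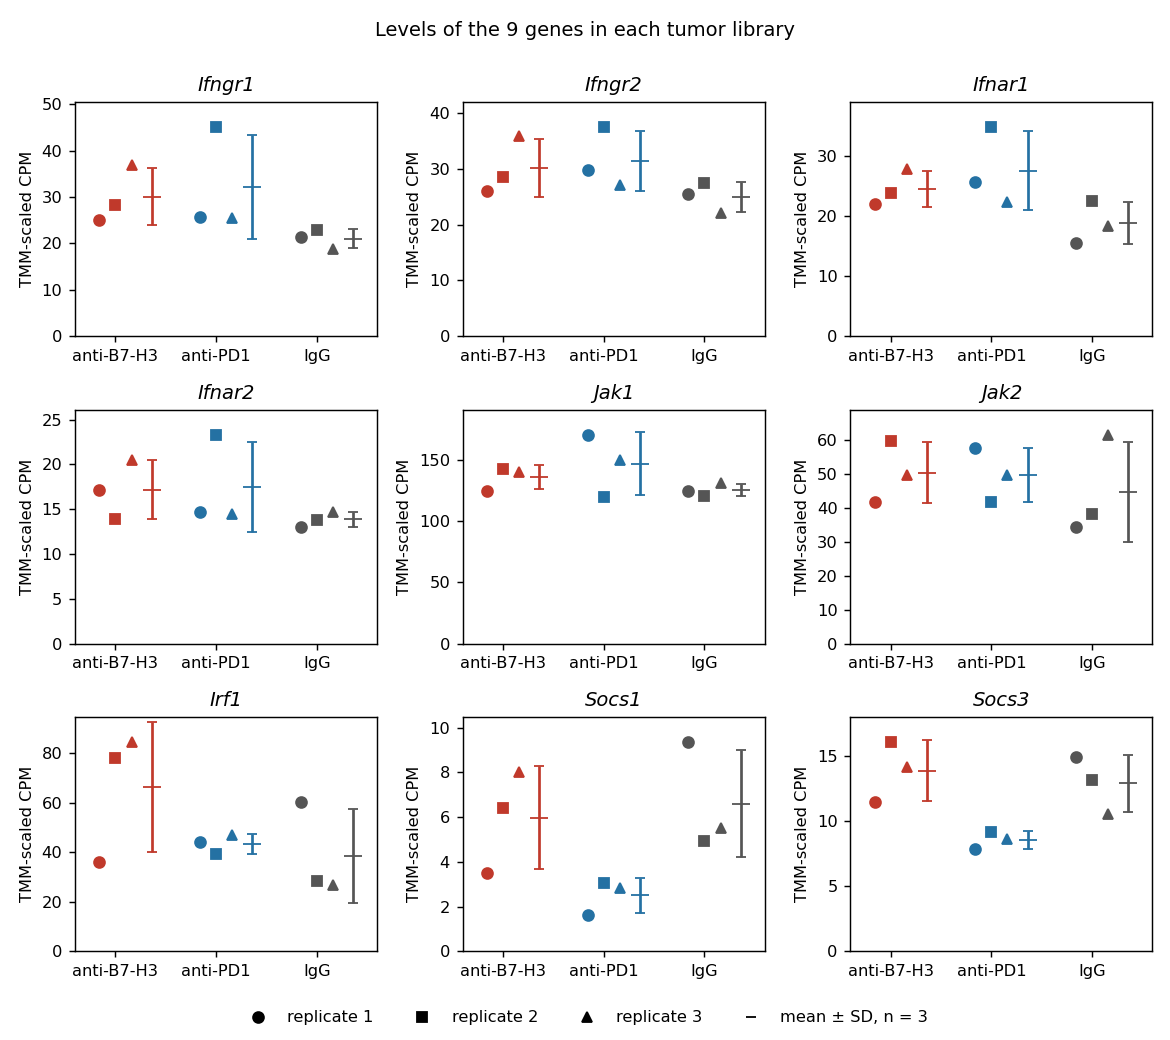
TMM-scaled CPM (y axis, from 0) of each gene in the 3 anti-B7-H3, 3 anti-PD1 and 3 IgG libraries; symbols mark the replicate number, and the bar to the right of each group is the mean ± SD (n = 3). Socs1 and Socs3 are lowest in the 3 anti-PD1 libraries, and Irf1 is highest in anti-B7-H3 replicates 2 and 3 and IgG replicate 1.

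The background was small beside the genes in the antibody groups and larger in the controls. As a share of a gene's level per kb, the receptor background came to 0.0107% to 0.754% with anti-B7-H3, to 0.0432% to 2.40% with anti-PD1 and to 0.637% to 18.1% with IgG. The highest value belongs to Ifnar1 in IgG replicate 3, whose level was 5.53 times the background, and Socs1 stood almost level with it there. In every other IgG library the lowest of the 9 genes stood at least 13.9 times above it.

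**Figure D2:**
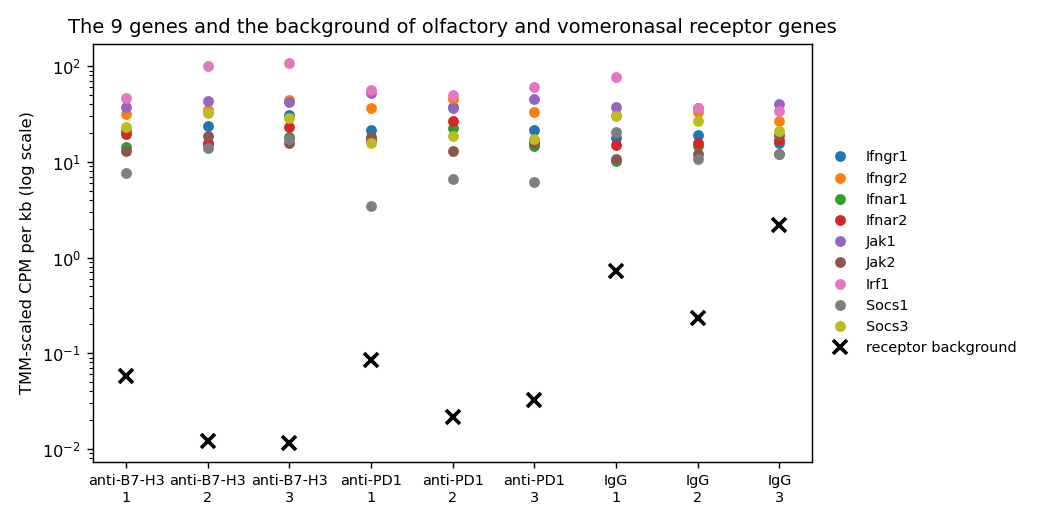
Levels of the 9 genes (colored points) and the background of olfactory and vomeronasal receptor genes (crosses) in CPM per kb on a log axis, by library. The background reaches 2.17 CPM per kb in IgG replicate 3 and lies at 0.0839 or lower in the 6 antibody libraries.

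The first question was how the pathway stood in tumors given anti-B7-H3, set against IgG. No member passed the threshold (adjusted p under 0.05 in edgeR's quasi-likelihood test, Benjamini-Hochberg over 12965 genes). Over all tested genes 0.555% were called, 0.00771% higher and 0.548% lower. An unadjusted p under 0.05 was held by 0 of the 9 and by 10.5% of all tested genes, 3.58% higher and 6.93% lower. Fitted changes were positive for 8 of 9 members and for 53.3% of all tested genes. The member median log2 fold change was 0.26 against 0.03 for all tested genes, and the member changes lay between -0.14 (Socs1) and 0.78 (Irf1). The groups did not overlap for 1 gene, Ifngr1, which was higher, while 16.3% of all tested genes showed such a separation (7.72% higher and 8.53% lower). Adjusted p-values ran from 0.495 to 0.94 (edgeR).

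The same question was put for anti-PD1 against IgG. Here 0 of 9 members passed in edgeR, with 0.393% of all tested genes called, 0.00771% higher and 0.386% lower. An unadjusted p under 0.05 was found for 4 of the 9 (Ifngr1, Ifnar1, Socs1 and Socs3) and for 18.5% of all tested genes (7.67% higher and 10.8% lower). Changes were positive for 7 of 9 (50.5% of all tested genes) with a median of 0.23 (0.01 for all genes). The exceptions were Socs1 and Socs3, and the groups did not overlap for 3 genes (Ifngr1 higher, Socs1 and Socs3 lower), against 23% of all tested genes (11.1% higher and 11.9% lower).

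Set directly against each other, anti-B7-H3 and anti-PD1 gave 0 members called, and edgeR called 0 genes at all (0% of those tested, with 840 or 6.48% at an unadjusted p under 0.05, 3.92% higher and 2.56% lower). Socs1 and Socs3 were the 2 members under that unadjusted value, and they were also the 2 whose groups did not overlap, against 15.4% of all genes (7.55% higher and 7.89% lower). The member median was -0.03, and the 9 changes ran from -0.17 (Ifnar1) to 1.24 (Socs1). A single test over the 3 groups called 0 of the 9 members, with 1.14% of all genes called and 14% at an unadjusted p under 0.05. Each pair of comparisons shares the libraries of 1 group, so their values are given side by side and not correlated.

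**Figure D3:**
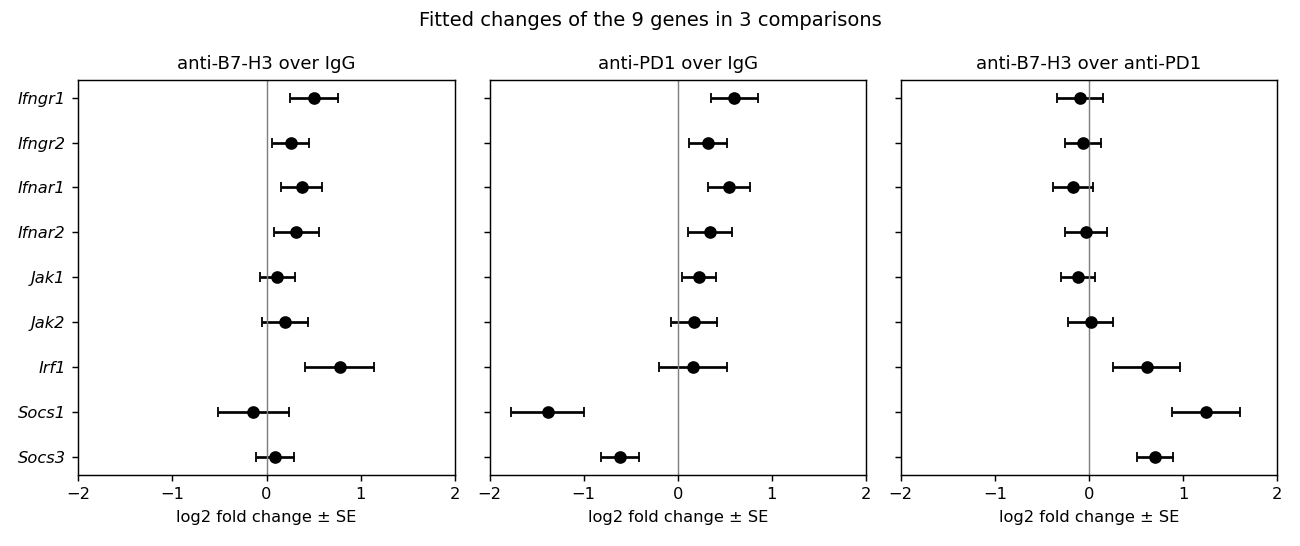
Fitted log2 fold changes with SE (x axis) of the 9 genes in the 3 comparisons, from 1 edgeR fit to all 9 libraries; positive values are higher in the group named first. The 4 receptor genes lie to the right of 0 against IgG in both antibody groups, and Socs1 and Socs3 lie to the left with anti-PD1.

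Among the receptors, Ifngr1 (ENSMUSG00000020009.13, chromosome 10, 19591949 to 19610229 on GRCm38) encodes the chain that binds interferon gamma. It had 25.02, 28.3 and 36.8 CPM in anti-B7-H3 tumors, 25.7, 45.1 and 25.5 in anti-PD1 tumors and 21.4, 22.8 and 18.9 in IgG tumors. Every antibody library lay above every IgG library, a joint separation whose share among all tested genes was not counted. Taken singly, 7.72% of tested genes lay wholly above IgG in anti-B7-H3 tumors and 11.1% in anti-PD1 tumors. For Ifngr1, anti-PD1 replicate 2 stood apart at the top. The log2 fold change was 0.51 ± 0.25 (SE) for anti-B7-H3 over IgG (edgeR adjusted p = 0.528) and 0.60 ± 0.25 for anti-PD1 over IgG (edgeR adjusted p = 0.237). Without anti-B7-H3 replicate 3 the first value was 0.34, and without anti-PD1 replicate 2 the second was 0.28. With the receptor background as a covariate they turned to -0.40 ± 0.49 and -0.14, those of Ifngr2 to -0.35 ± 0.40 and -0.16, and that of Ifnar1 with anti-B7-H3 to -0.24 ± 0.44. The covariate separates IgG from every antibody library, so this fit cannot tell background and treatment apart.

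Ifngr2, the partner chain that brings JAK2, averaged 30.1 ± 5.19 CPM with anti-B7-H3, 31.5 ± 5.41 with anti-PD1 and 24.99 ± 2.68 with IgG (SD, n = 3). Its groups overlapped, and its changes were 0.26 ± 0.20 and 0.32 ± 0.20 against IgG. Per kb, the ratio of Ifngr1 to Ifngr2 was 0.661, 0.680 and 0.703 in anti-B7-H3 tumors, 0.593, 0.824 and 0.645 in anti-PD1 tumors and 0.575, 0.570 and 0.585 in IgG tumors. The lowest antibody library (0.593) and the highest IgG library (0.585) were close, and IgG replicate 3 rests on 41 and 48 reads.

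Ifnar1, a chain of the type I receptor that binds TYK2, had 22.0, 23.8 and 27.8 CPM in anti-B7-H3 tumors, 25.6, 34.9 and 22.3 in anti-PD1 tumors and 15.6, 22.5 and 18.4 in IgG tumors. The top IgG library reached into the range of both antibody groups. Its changes were 0.37 ± 0.22 with anti-B7-H3 (edgeR adjusted p = 0.596) and 0.54 ± 0.22 with anti-PD1 (edgeR adjusted p = 0.221). Ifnar2, the high-affinity chain, averaged 17.2 ± 3.27, 17.5 ± 5.04 and 13.9 ± 0.842 CPM with anti-B7-H3, anti-PD1 and IgG in that order (SD, n = 3). Between the antibody groups the receptor changes were -0.10 ± 0.24 for Ifngr1, -0.06 ± 0.19 for Ifngr2, -0.17 ± 0.21 for Ifnar1 and -0.03 ± 0.22 for Ifnar2, each smaller than its SE.

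Ifnar2, Il10rb, Ifnar1 and Ifngr2 lie in a row on the plus strand of chromosome 16, over 193 kb between 91372783 and 91565623 (GRCm38), while Ifngr1 is on another chromosome. All 4 interferon receptor genes were highest in anti-PD1 replicate 2. The share of all tested genes highest in that library was not counted. Over the 9 libraries the centred log2 levels of the receptor genes differed from one another by a root mean square of 0.16 to 0.19. Other genes lay nearer to each, namely Adsl to Ifngr1 (0.07), Smyd2 to Ifngr2 (0.05), Znrd1 to Ifnar1 (0.07) and Atp5l to Ifnar2 (0.08). Il10rb, the shared chain of interleukin 10 and interferon lambda receptors, had 9.36, 8.75 and 13.0 CPM in anti-B7-H3 tumors, 8.81, 16.3 and 9.03 in anti-PD1 tumors and 6.81, 7.37 and 5.98 in IgG tumors. It too was highest in anti-PD1 replicate 2.

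The libraries with the highest and second highest Ifngr1, anti-PD1 replicate 2 and anti-B7-H3 replicate 3, were also richest in macrophage genes. The summed level of 14 macrophage and monocyte markers was 853, 823 and 1477 CPM in anti-B7-H3 tumors, 651, 1517 and 602 in anti-PD1 tumors and 741, 595 and 286 in IgG tumors, so the ranges of the groups overlapped. Csf1r and Adgre1 belong to that list, and 1 marker was at 0 in 1 library (IgG replicate 3). Summed skeletal muscle markers were 296, 1.17 and 1714 CPM in anti-B7-H3 tumors, 73.1, 1157 and 505 in anti-PD1 tumors and 30.4, 60.0 and 35.9 in IgG tumors. Keratinocyte and erythroid markers, like Ifngr1, separated IgG from every antibody library, but in the opposite direction. Summed keratinocyte markers (9 genes, 2 of them tested) were 0.900 to 2.92 CPM with anti-B7-H3, 1.65 to 3.93 with anti-PD1 and 17.1 to 41.4 with IgG, and at most 1 of the 9 was at 0 in a library. Summed erythroid markers (7 genes, 5 of them tested) were 20.9 to 56.2 CPM with anti-B7-H3, 23.1 to 41.9 with anti-PD1 and 64.8 to 360 with IgG. The background of olfactory and vomeronasal receptor genes, 0.234 to 2.17 CPM per kb with IgG, was not taken off these marker sums. Its part in the low keratinocyte levels was not tested. The part of these cell types in the interferon receptor values was not tested. In bulk RNA, fewer cells of a type and less RNA per cell cannot be told apart.

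The split of reads between transcripts could be followed for Ifnar2. Mice are known to make a soluble Ifnar2 protein from an alternative transcript as well as the membrane receptor. Most reads were placed on Ifnar2-203, with 747 coding bases, and Ifnar2-201, with 1542. Ifnar2-203 took 49.5%, 50.9% and 62.7% of the gene's estimated reads in anti-B7-H3 tumors, 70.7%, 68.1% and 58.6% in anti-PD1 tumors and 42.8%, 60.7% and 0% in IgG tumors. The share overlapped between the groups. In IgG replicate 3, where the whole gene had 32 reads, 70.5% were placed on Ifnar2-202 (744 coding bases), which took at most 3.50% elsewhere. The deposited estimates divide reads that transcripts share, so such shares are uncertain at this depth. Ifngr1, Ifngr2, Ifnar1, Jak1, Jak2 and Irf1 had at least 94.9% of all their reads on 1 transcript, and Socs1 and Socs3 have 1 listed transcript each.

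**Figure D4:**
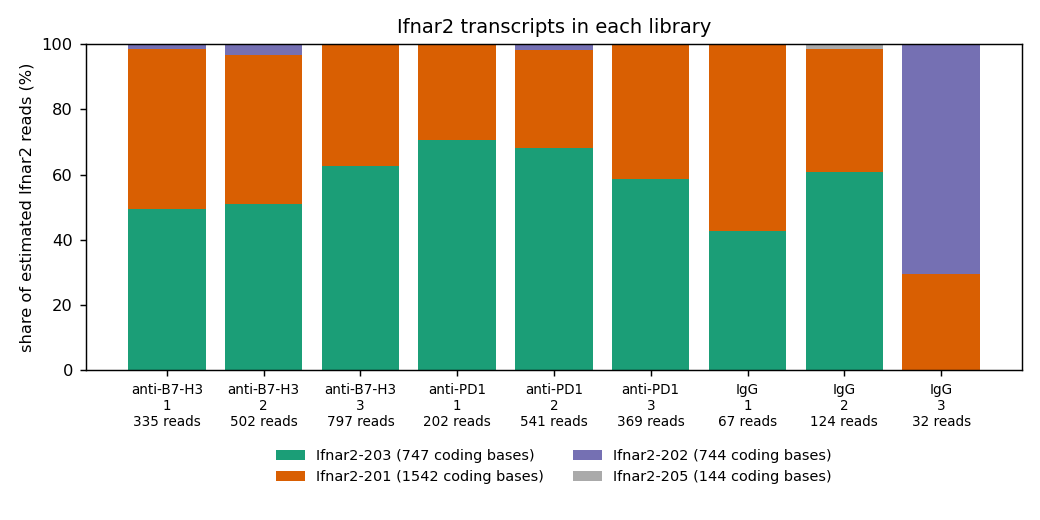
Share (%) of estimated Ifnar2 reads on each listed transcript, by library, with the gene's read total under each bar. IgG replicate 3, with 32 reads, is the library whose reads were placed mostly on Ifnar2-202.

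Jak1 (chromosome 4, 101152367 to 101265282), shared by both receptor types, had 124, 142 and 140 CPM in anti-B7-H3 tumors, 170, 120 and 150 in anti-PD1 tumors and 124, 121 and 131 in IgG tumors. Highest and lowest library differed 1.42-fold, the smallest span of the 9 genes, against 1.80-fold for Jak2. Its changes against IgG were 0.11 ± 0.18 and 0.23 ± 0.18. Jak2 (chromosome 19, 29251828 to 29313080), the kinase of Ifngr2, averaged 50.4 ± 9.06 CPM with anti-B7-H3, 49.8 ± 8.01 with anti-PD1 and 44.7 ± 14.8 with IgG (SD, n = 3), and its changes over IgG were 0.19 ± 0.24 for anti-B7-H3 and 0.17 ± 0.24 for anti-PD1. They were 0.041 and 0.021 without IgG replicate 1, and 0.48 and 0.46 without IgG replicate 3. Both Jak2 extremes were IgG libraries, 61.7 CPM in replicate 3 and 34.3 in replicate 1, so the treatments lay within the spread of the controls.

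The inducible genes Irf1, Socs1 and Socs3 are shown with their promoters. STAT dimers bind GAS elements (searched as TTCNNNGAA), and IRF proteins bind repeats of GAAA (searched as GAAA, any 2 bases, GAAA), both on either strand. Capitals mark matches in the RefSeq windows of GRCm38.p6, which run from 250 bases before to 50 after the start of transcription. They are chr11:53769764-53770063 on the plus strand for Irf1, chr16:10785487-10785786 on the minus strand for Socs1 and chr11:117969317-117969616 on the minus strand for Socs3.
Irf1: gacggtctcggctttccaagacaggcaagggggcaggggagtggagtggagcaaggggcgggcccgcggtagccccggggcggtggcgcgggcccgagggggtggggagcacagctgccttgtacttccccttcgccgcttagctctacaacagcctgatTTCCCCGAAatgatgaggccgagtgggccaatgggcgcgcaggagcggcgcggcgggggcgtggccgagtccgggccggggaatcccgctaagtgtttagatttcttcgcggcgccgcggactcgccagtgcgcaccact
Socs1: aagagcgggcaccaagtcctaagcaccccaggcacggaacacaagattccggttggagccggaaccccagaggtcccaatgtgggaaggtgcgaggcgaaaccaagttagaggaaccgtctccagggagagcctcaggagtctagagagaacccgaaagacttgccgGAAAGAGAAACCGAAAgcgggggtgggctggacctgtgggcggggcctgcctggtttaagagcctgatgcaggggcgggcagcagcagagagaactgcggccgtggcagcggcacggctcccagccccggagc
Socs3: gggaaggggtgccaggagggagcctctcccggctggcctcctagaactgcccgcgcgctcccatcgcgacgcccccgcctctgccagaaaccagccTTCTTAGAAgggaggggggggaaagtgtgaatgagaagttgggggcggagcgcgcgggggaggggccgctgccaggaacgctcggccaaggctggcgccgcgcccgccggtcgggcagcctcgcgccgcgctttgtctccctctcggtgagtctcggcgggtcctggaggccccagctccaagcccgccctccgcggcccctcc

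Irf1 had 1 GAS match, TTCCCCGAA, from base -90 to -82 relative to the start, and Socs3 had 1, TTCTTAGAA, from -154 to -146. Socs1 had 2 overlapping GAAA repeat matches, GAAAGAGAAA from -83 and GAAACCGAAA from -77. Among 32851 mouse promoter windows of the same length, 8.3% held TTCNNNGAA and 3.44% held the GAAA repeat. All 9 genes were found in the RefSeq table, with 10 windows because Irf1 has a second start. Ifnar1 and Ifnar2 held 1 TTCNNNGAA match each, and the windows of Ifngr1, Ifngr2, Jak1 and Jak2 held neither motif. A match describes letters in a window and not a bound site.

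Irf1 (ENSMUSG00000018899.16, chromosome 11, 53770014 to 53778374) had 36.3, 78.2 and 84.5 CPM in anti-B7-H3 tumors, 44.1, 39.2 and 46.9 in anti-PD1 tumors and 60.5, 28.3 and 26.7 in IgG tumors. The groups overlapped, because anti-B7-H3 replicate 1 was below all 3 anti-PD1 libraries and IgG replicate 1 was above them. The log2 fold change over IgG was 0.78 ± 0.36 with anti-B7-H3 (edgeR adjusted p = 0.495) and 0.16 ± 0.36 with anti-PD1 (edgeR adjusted p = 0.846). Leaving out IgG replicate 1 moved them to 1.28 and 0.66, both still short of the threshold. With the receptor background as a covariate, which separates IgG from the antibody groups, they turned to -0.17 ± 0.90 and -0.55. Anti-B7-H3 over anti-PD1 was 0.61 ± 0.35 (edgeR adjusted p = 0.769).

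Socs1 (ENSMUSG00000038037.5, chromosome 16, 10782240 to 10785536), the inhibitor of JAK kinases, had 3.48, 6.39 and 8.02 CPM in anti-B7-H3 tumors, 1.60, 3.06 and 2.83 in anti-PD1 tumors and 9.34, 4.92 and 5.52 in IgG tumors. All 3 anti-PD1 libraries were below all 6 others, as they were for 2.5% of tested genes, while they were above all 6 others for 2.89%. Fitted against IgG, the anti-PD1 change was -1.38 ± 0.39, a level 0.383 times that of IgG tumors (edgeR adjusted p = 0.115). DESeq2 gave -1.35 ± 0.47 (adjusted p = 0.0355), but it called 13.5% of all genes with an adjusted p in that comparison, 11.1% as lower, so 1 of 9 members is near that share. Over any of the 3 groups, DESeq2 called 2 of the 9 members and 15.8% of all genes, and edgeR without a filter on low counts called 1 of the 9 and 7.8% of all genes. Over 18 alternatives the Socs1 change was between -2.47 and -1.02, with adjusted p from 0.0355 to 0.912. Anti-B7-H3 over IgG was -0.14 ± 0.37, and anti-B7-H3 over anti-PD1 was 1.24 ± 0.36 (edgeR adjusted p = 0.749). With the receptor background as a covariate, which separates IgG from the antibody groups, anti-B7-H3 over IgG was -1.51 ± 0.84. In anti-PD1 replicate 1 the level rests on 22 reads (95% Poisson interval 1.00 to 2.43 CPM) and in IgG replicate 3 on 12 reads (2.85 to 9.65 CPM). With the receptor background taken off each library, an alternative chosen after seeing the data, the anti-PD1 log2 ratio to IgG was -1.30. Per kb, the ratio of Socs1 to Irf1 was 0.164, 0.139 and 0.162 in anti-B7-H3 tumors, 0.0619, 0.133 and 0.103 in anti-PD1 tumors and 0.263, 0.296 and 0.353 in IgG tumors. The IgG libraries were the 3 highest; neither this ratio nor that of Ifngr1 to Ifngr2 was set against other gene pairs.

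Socs3 (ENSMUSG00000053113.3, chromosome 11, 117966079 to 117970047), the brake on gp130 receptors, was also lowest with anti-PD1. It had 11.5, 16.1 and 14.2 CPM in anti-B7-H3 tumors, 7.87, 9.19 and 8.67 in anti-PD1 tumors and 14.99, 13.2 and 10.6 in IgG tumors. The anti-PD1 libraries were again the 3 lowest, and they differed little among themselves (SD 0.664 CPM). Their change over IgG was -0.61 ± 0.20 (edgeR adjusted p = 0.155), and anti-B7-H3 over anti-PD1 was 0.70 ± 0.19 (edgeR adjusted p = 0.749). Anti-B7-H3 over IgG was 0.09 ± 0.20. It turned to -0.54 ± 0.42 with the background covariate, which separates IgG from the antibody groups. Both SOCS genes thus stood lower with anti-PD1 than with either other treatment, by amounts that did not pass the correction over all genes in edgeR.

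Irf1, Socs1 and Socs3 shared their 3 highest libraries, which were anti-B7-H3 replicates 2 and 3 and IgG replicate 1. Of all tested genes 2.82% had these 3 on top. Of 23 tested interferon gamma and IRF1 target genes 18 did, including the chemokine genes Cxcl9 and Cxcl10, the immunoproteasome genes Psmb8, Psmb9 and Psmb10, the peptide transporter gene Tap1 and Cd274, which encodes the PD-1 ligand PD-L1. This count was chosen after the values of Irf1 were seen. Cd274 had 3.94, 16.2 and 23.1 CPM in anti-B7-H3 tumors, 4.44, 2.33 and 5.65 in anti-PD1 tumors and 12.3, 4.25 and 2.30 in IgG tumors. High and low libraries thus occurred within both the anti-B7-H3 and the IgG group.

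T and NK cell markers ran in parallel. Their summed level over 13 genes was 17.7, 33.5 and 35.9 CPM in anti-B7-H3 tumors, 11.6, 16.2 and 19.7 in anti-PD1 tumors and 29.2, 11.3 and 17.0 in IgG tumors, and the same 3 libraries were highest. Of 12 tested markers 8 had these libraries on top, and 1 marker was at 0 in 1 library (IgG replicate 3). Summed dendritic cell markers (7 genes, 6 of them tested) had the same 3 highest libraries, at 21.0, 48.2 and 46.9 CPM in anti-B7-H3 tumors, 12.5, 20.8 and 18.3 in anti-PD1 tumors and 27.3, 18.0 and 23.9 in IgG tumors. Most of that sum was Itgax in 8 of the 9 libraries, the 1 tested gene of that list with these libraries on top, and Siglech was at 0 in 2 libraries. Of 14 macrophage markers 0 had them on top, and of 8 pan-leukocyte markers 0 did. The part of T, NK and dendritic cell content in the Irf1 and SOCS values was not tested.

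**Figure D5:**
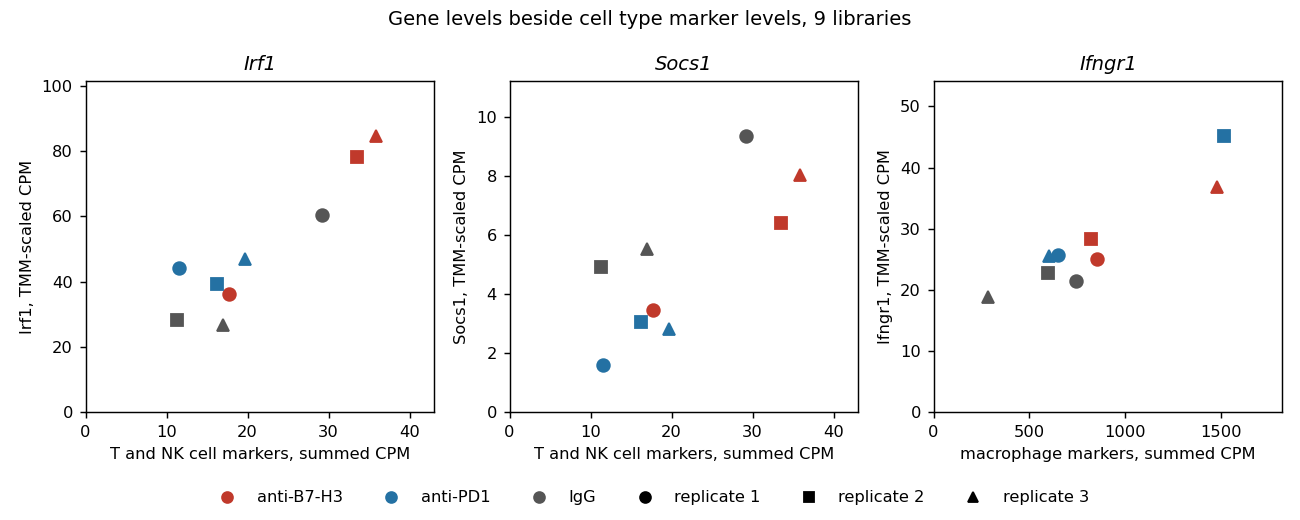
TMM-scaled CPM of Irf1, Socs1 and Ifngr1 (y axes) against summed CPM of cell type markers (x axes) in the 9 libraries, colored by group with symbols for the replicate. The 3 libraries with 29.2 to 35.9 CPM of T and NK cell markers hold the highest Irf1 and Socs1, and those with 1477 and 1517 CPM of macrophage markers hold the highest Ifngr1.

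The rest of the pathway was described by lists. Of all tested genes 53.3% were positive with anti-B7-H3 over IgG, 50.5% with anti-PD1 over IgG and 51.1% with anti-B7-H3 over anti-PD1. These shares stand beside each count of positive genes below. Of 10 other JAK, STAT and IRF9 genes, all tested, 0 passed in edgeR in any comparison. With anti-B7-H3 over IgG 10 of 10 were positive with a median of 0.29, with anti-PD1 over IgG 4 of 10 (median -0.06), and with anti-B7-H3 over anti-PD1 10 of 10 (median 0.32). Jak3, the kinase of lymphocyte cytokine receptors, was at 0.84 ± 0.33 for anti-B7-H3 over anti-PD1 (edgeR adjusted p = 0.749).

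Of 20 interferon ligand genes only Ifng had enough reads to be tested, with 46 reads over the anti-B7-H3 libraries, 9 over the anti-PD1 libraries and 4 over the IgG libraries. Its level was 0.461, 0.334 and 0.643 CPM in anti-B7-H3 tumors, 0.0729, 0.0863 and 0.235 in anti-PD1 tumors and 0.779, 0 and 0 in IgG tumors. The IgG reads all came from replicate 1. Changes were 0.85 ± 1.10, -0.90 ± 1.24 and 1.75 ± 0.92 in the 3 comparisons (edgeR adjusted p = 0.848, 0.735 and 0.759). The 19 type I, type III and other interferon genes had at most 13 reads each over all libraries, and Ifnz had none. Low reads limit any statement on ligands at this depth.

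The 23 tested interferon gamma and IRF1 target genes had a median of 0.89 with anti-B7-H3 over IgG (21 positive), -0.17 with anti-PD1 over IgG (8 positive) and 0.97 with anti-B7-H3 over anti-PD1 (22 positive). None of the 23 passed in edgeR in any comparison. An unadjusted p under 0.05 was held by 1 higher and 1 lower gene with anti-B7-H3 over IgG, by 1 lower gene with anti-PD1 over IgG and by 3 higher genes with anti-B7-H3 over anti-PD1. Ciita, the master switch of MHC class II genes, had 13.0, 20.7 and 19.6 CPM in anti-B7-H3 tumors, 6.78, 9.83 and 13.0 in anti-PD1 tumors and 9.73, 6.37 and 4.60 in IgG tumors. Anti-B7-H3 lay above IgG in every library, as for 7.72% of all tested genes, by 1.32 ± 0.32 (edgeR adjusted p = 0.0926). Gbp5, an interferon-induced GTPase gene, ran the other way, at -2.18 ± 0.71 for anti-B7-H3 over IgG and -2.72 ± 0.73 for anti-PD1 over IgG (edgeR adjusted p = 0.288 and 0.122). Its 350 CPM in IgG replicate 3 stood far above the 127 and 37.1 of the other IgG libraries.

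Other restraints of the pathway, 17 in all, gave medians of 0.12 (11 positive), 0.06 (11 positive) and 0.25 (13 positive) in the 3 comparisons, with 0 passing in edgeR. Ptpn1, a phosphatase acting on JAK2 and TYK2, had 16.1, 21.8 and 22.6 CPM in anti-B7-H3 tumors, 13.9, 15.5 and 15.9 in anti-PD1 tumors and 14.6, 14.3 and 14.7 in IgG tumors. Its anti-B7-H3 libraries lay above all others, at 0.48 ± 0.18 over IgG (edgeR adjusted p = 0.352). With anti-B7-H3, 7.72% of all tested genes lay wholly above IgG and 7.55% wholly above anti-PD1. Ptprc, which encodes the leukocyte phosphatase CD45 and is also a pan-leukocyte marker, was at 1.43 ± 0.35 for anti-B7-H3 over IgG and 0.90 ± 0.35 for anti-PD1 over IgG (edgeR adjusted p = 0.11 and 0.21). Sh2b3, an adaptor that damps JAK2, was at -0.69 ± 0.24 with anti-PD1 over IgG (edgeR adjusted p = 0.172). Of 6 tested interferon regulatory factor genes besides Irf1 and Irf9, 0 passed in edgeR, and Irf8, a factor of myeloid cells, was at 0.76 ± 0.27 for anti-B7-H3 over anti-PD1 (edgeR adjusted p = 0.749).

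Socs3 also answers cytokines that signal through gp130 and STAT3, so that branch was listed as well. Of 11 tested gp130-type receptor and cytokine genes 0 passed in edgeR, with medians of 0.11, -0.38 and 0.25 in the 3 comparisons. Il6st, which encodes gp130 itself, had 88.9, 96.5 and 94.8 CPM in anti-B7-H3 tumors, 127, 93.9 and 111 in anti-PD1 tumors and 66.6, 81.9 and 67.6 in IgG tumors. Both antibody groups lay above IgG in every library, at 0.37 ± 0.18 and 0.61 ± 0.18 (edgeR adjusted p = 0.506 and 0.122). Levels wholly above IgG were seen for 7.72% of all tested genes in anti-B7-H3 tumors and for 11.1% in anti-PD1 tumors. The share of genes above IgG in both antibody groups at once was not counted. Il11, a gp130 cytokine gene, had 1.23, 2.20 and 2.29 CPM in anti-B7-H3 tumors, 0.510, 0.690 and 0.903 in anti-PD1 tumors and 1.36, 1.68 and 1.38 in IgG tumors. Its anti-PD1 libraries were the 3 lowest, as they were for 2.5% of tested genes. The Il11 levels rest on 7, 16 and 23 reads with anti-PD1 and on 7, 15 and 3 with IgG. The receptor background, higher with IgG, was not taken off them.

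The 14 STAT3 target genes had medians of 0.45 (9 positive), -0.13 (5 positive) and 0.70 (13 positive), and 0 passed in edgeR. Junb, an immediate early factor gene, had 26.5, 43.2 and 43.5 CPM in anti-B7-H3 tumors, 20.3, 25.2 and 18.2 in anti-PD1 tumors and 36.2, 35.6 and 14.7 in IgG tumors. Anti-B7-H3 lay above anti-PD1 in every library, as for 7.55% of all tested genes, at 0.83 ± 0.30 (edgeR adjusted p = 0.749). Icam1, an adhesion gene, was at 1.38 ± 0.46 and Il4ra, the interleukin 4 receptor gene, at 0.80 ± 0.28 for anti-B7-H3 over IgG (edgeR adjusted p = 0.265 and 0.303). With anti-PD1 over IgG, Lcn2, which encodes a siderophore-binding protein, was at -2.43 ± 0.85 (edgeR adjusted p = 0.172). Lcn2 had 7, 5 and 6 reads in the anti-PD1 libraries and 12, 14 and 2 in the IgG libraries. Cebpd, a STAT3-induced factor gene, was at -1.41 ± 0.47 in that comparison (edgeR adjusted p = 0.165).

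Genes most like each member were sought by the root mean square difference of centred log2 CPM over the 9 libraries among 10534 genes. For Irf1 they were Tgm2 (0.16), Samhd1 (0.16) and Cd3g (0.20), which encode a transglutaminase, a nucleotide hydrolase and a T cell receptor subunit. Those nearest to Socs1 were Dusp2 (0.24), Stx11 (0.27) and Riox1 (0.32), and those nearest to Socs3 were Relb (0.08), Atf4 (0.13) and Slc15a4 (0.14). Ifngr1 was nearest to Adsl (0.07) and to the lysosomal enzyme genes Ctsa (0.08) and Hexa (0.08). The nearest gene was Smyd2 (0.05) for Ifngr2, Znrd1 (0.07) for Ifnar1, Atp5l (0.08) for Ifnar2, Ppip5k2 (0.05) for Jak1 and Mapk8 (0.09) for Jak2. The log2 SD over libraries was 0.17 for Jak1 and 0.79 for Socs1.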

How the data were processed

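RNA-seq of 9 tumor libraries was analysed. Per the labels' protocols, total RNA with an RNA Integrity Number of at least 7.0 was depleted of ribosomal RNA. Per the file headers, the deposited tables give estimated counts per transcript, not normalized, with TPM values scaled by effective length by the authors. TPM was not used. The submitters' processing notes name FastQC 0.11.8 and GRCm38; no quantifier is named there or in the labels. Of 58083 transcripts 57409 matched GENCODE M21 by identifier without version, and unmatched ones held 0.105% to 0.369% of reads. For 92.2% of transcripts with a coding sequence, the length column matches it, so lengths are coding lengths. Counts were summed per gene and rounded.

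edgeR 4.0.16 in R 4.3.3 fitted 1 robust quasi-likelihood model to all 9 libraries, with TMM scaling, filterByExpr and group as the only term. It tested 12965 genes. Levels per kb divide CPM by effective length averaged over transcripts by reads. Satellite genes share over 30% of their 15-base words with the transcript that had most IgG reads, and receptor background is over 1453 olfactory and vomeronasal genes. Alternatives were DESeq2 1.42.0, limma 3.58.1 voom, other scalings, filters and libraries, and a replicate block. The edgeR fit was tested on simulated data. Members and gene lists were chosen with earlier results of these data known. Named genes are all members, the 3 genes of smallest p per list and comparison, and the 3 genes most like each member; which list genes the text prints was settled after seeing values.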

Additional observations from a re-analysis of the deposited data

How the results depend on the processing

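Under 18 alternatives, 0 members were called for anti-B7-H3 over IgG or over anti-PD1 in any of them. For anti-PD1 over IgG 1 was called with DESeq2 (Socs1), which called 2346 of 17392 genes (13.5%) against 51 of 12965 in edgeR. For any of 3 groups 2 were called with DESeq2 (Socs1 and Socs3, adjusted p = 0.0481 and 0.042), with 15.8% of all genes, and 1 without a filter on low counts (Socs1, adjusted p = 0.0457), with 7.8% of all genes. With the receptor background as a covariate, which separates IgG from the antibody groups, the member medians over IgG were -0.24 for anti-B7-H3 and -0.14 for anti-PD1. There, the changes that switched sign with anti-B7-H3 were -0.40 ± 0.49 (SE) for Ifngr1, -0.35 ± 0.40 for Ifngr2, -0.24 ± 0.44 for Ifnar1, -0.17 ± 0.90 for Irf1 and -0.54 ± 0.42 for Socs3. The others with anti-B7-H3 were 0.022 ± 0.52 for Ifnar2, 0.30 ± 0.43 for Jak1, 0.62 ± 0.57 for Jak2 and -1.51 ± 0.84 for Socs1. With anti-PD1 those that switched sign were -0.14 for Ifngr1, -0.16 for Ifngr2 and -0.55 for Irf1. The cause was not tested. Scaling by totals without satellite genes moved the median of all genes to 0.27 and 0.25 over IgG, the anti-PD1 member median to 0.48 and Socs1 with anti-B7-H3 to 0.094; it was 0.10 without a filter.

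Leaving out 1 library gave ranges over IgG with anti-B7-H3 of -0.40 to 0.23 for Socs1 and -0.020 to 0.22 for Socs3, and of -0.019 to 0.66 for Irf1 with anti-PD1. Those of Jak2 over IgG were 0.041 to 0.48 with anti-B7-H3 and 0.021 to 0.46 with anti-PD1. For anti-B7-H3 over anti-PD1 the ranges were -0.14 to 0.23 for the median, -0.27 to 0.23 for Ifngr1, -0.21 to 0.087 for Ifngr2, -0.30 to 0.038 for Ifnar1, -0.17 to 0.24 for Ifnar2 and -0.12 to 0.14 for Jak2. Without anti-PD1 replicate 2 the median was 0.23. Socs1 and Socs3 stayed negative with anti-PD1 over IgG in all 18, from -2.47 to -1.02 and from -1.11 to -0.38. Correlations between the deviations of same-numbered libraries ran from -0.32 to 0.18. Differently numbered libraries were not set beside them, so these values cannot settle whether the numbers pair libraries. With the replicate block the count of members called stayed at 0 in each comparison. Socs1 with anti-PD1 over IgG was then -1.47 (edgeR adjusted p = 0.138).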
